A study of Mus musculus with 6 samples.

Results

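The 9 genes described here, *Upf1*, *Upf2*, *Upf3a*, *Upf3b*, *Smg1*, *Smg5*, *Smg6*, *Smg8* and *Smg9*, encode core factors of nonsense-mediated decay (NMD). They were taken by symbol from a table of read counts for 24421 genes, and all 9 were found in it. The table holds 6 RNAseq libraries of mouse embryo heads at embryonic day 9.0 (E9.0). Of these, 3 came from embryos labelled WT and 3 from *Snrpb ncc+/-* mutants. In the mutants 1 copy of *Snrpb*, a core protein of the spliceosome, is deleted by Wnt1-Cre2. This Cre is active in neural tube and in cells of the neural crest, so the other cells of a mutant head kept both copies. Each library was made from 2 pooled heads of one genotype, and the embryos received no treatment. The labels give the strain as C57BL/6 and name CD1 in the titles, and the paper states a mixed CD1 and C57BL/6J background for its embryos. Whether the WT heads carried Cre or a loxP allele is not given in the sources used here. The comparison asks whether heads with *Snrpb*-deficient neural crest, in which splicing was examined by the study, had altered levels of the mRNAs for the decay machinery.

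NMD degrades mRNAs on which the ribosome stops at a premature termination codon, typically a stop codon that lies upstream of an exon junction complex left behind by splicing. UPF3A or UPF3B and UPF2 connect that complex to the RNA helicase UPF1, which is phosphorylated by the kinase SMG1 under the control of SMG8 and SMG9. Phosphorylated UPF1 recruits SMG6, an endonuclease that cuts the mRNA, and SMG5, an adaptor for decay from the ends. Some NMD factor mRNAs, among them *Upf1*, *Upf2*, *Upf3b*, *Smg1*, *Smg5* and *Smg6*, are known to be decay targets themselves, which makes their levels a feedback readout of the pathway.

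None of the 9 genes passed the test for a difference between mutant and WT heads. Their log2 fold changes, mutant against WT, ran from -0.09 (*Smg1*) to 0.07 (*Smg5*), with 5 of 9 values above 0 (50.2% of all tested genes), 4 below 0 and a median of 0.00, the same to 2 decimals as the median of all 15584 genes tested. By the quasi-likelihood test of edgeR, adjusted over those genes by Benjamini-Hochberg, 0 of 9 had an adjusted *P* below 0.05 (0.00642% of all tested genes, a single gene, did), and the lowest adjusted *P* was 0.712 (*Smg5*). At an unadjusted *P* below 0.05, 0 of 9 passed against 8.43% of all tested genes. In none of the 9 did the WT and mutant libraries separate, beside 15.2% of all tested genes in which they did. With only 9 genes, 0 is not far from these shares. DESeq2 also called 0 of 9 (0.651% of the genes to which it gave an adjusted *P*), with a lowest adjusted *P* of 0.910. The median absolute log2 fold change of the 9 genes was 0.01, beside 0.05 for the 5970 tested genes in the same range of levels. The median standard error of the 9, 0.06, was close to the 0.05 of those genes and larger than either median change. The 9 were chosen with earlier results of these data known, and whether they differ from those genes was not tested.

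**Figure D1:**
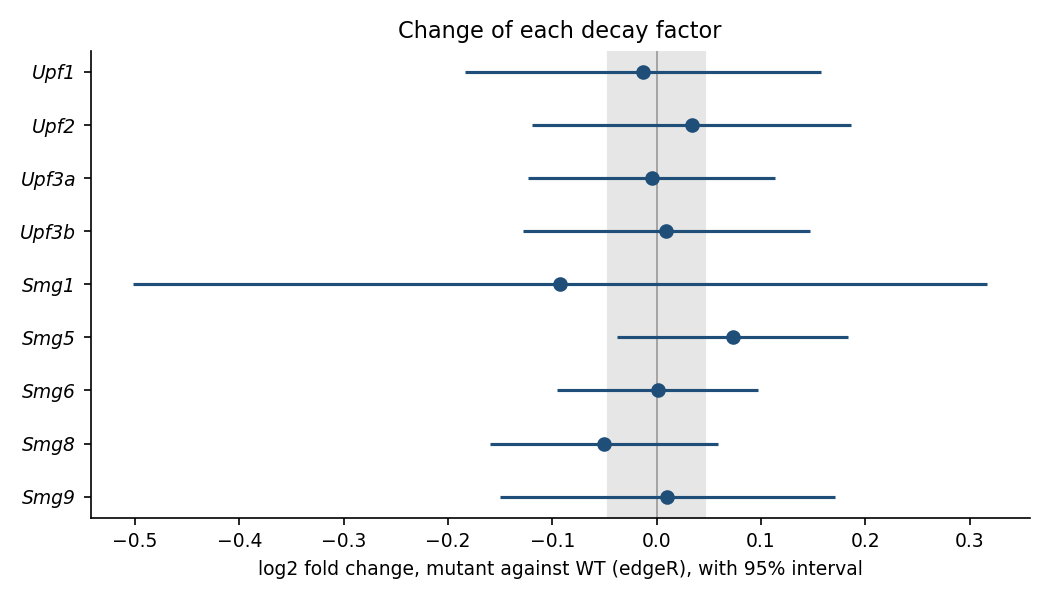
Log2 fold change of each decay factor, mutant against WT heads, from edgeR, with 3 libraries per group. Points are estimates and lines are 95% intervals. The grey band spans the median absolute log2 fold change, 0.05, of the 5970 genes expressed in the same range of levels, and every interval crosses 0, with that of *Smg1* the widest.

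The WT libraries held 36378803 to 58946111 counted reads and the mutant libraries 42398206 to 74909774, and the 9 genes together took between 0.0738% and 0.0829% of them. The smallest count of any of the 9 genes in any library was 847 (*Smg9*, WT replicate 3) and the largest 15033 (*Smg1*, mutant replicate 3). *P*-values measure the spread between these pools, and in such bulk samples fewer cells of a type and less RNA per cell cannot be told apart. *Snrpb* itself measured 429.9, 438.2 and 414.2 CPM (reads of a gene per 1000000 counted reads, with library sizes adjusted by edgeR's TMM factors) in WT and 436.5, 412.4 and 430.3 CPM in mutants, with a 95% interval of the log2 fold change from -0.09 to 0.09, so its level in whole heads does not check the genotype labels. The summed level of 12 head and neural markers was 538.6 to 602.2 CPM in WT and 520.8 to 564.0 CPM in mutants, with all 12 detected. WT replicate 1 stood apart in 6 visceral endoderm markers, at 26.8 CPM against 5.91 to 7.44 CPM in the other libraries, and in 8 cardiac markers, at 11.9 CPM against 30.8 to 112 CPM. The summed level of 4 Y-linked genes was 62.8 to 120 CPM in WT and 111 to 228 CPM in mutants. Mutant replicates 1 and 2, at 173 and 228 CPM, lay above all WT libraries, and mutant replicate 3 lay within the WT range. The mix of sexes thus differed between pools and was not balanced between the genotypes, although the groups overlapped. The part of these differences in the values below was not tested beyond the alternatives that are named.

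*Upf1* encodes the helicase at the centre of the pathway. Its level was 166.6, 140.6 and 140.5 CPM in WT replicates 1 to 3 and 147.6, 139.7 and 156.2 CPM in mutant replicates 1 to 3. The highest and 2 of the 3 lowest values were WT, and the groups overlapped. WT heads averaged 149 ± 15.1 CPM and mutant heads 148 ± 8.25 CPM (SD, 3 libraries each), and the log2 fold change was -0.01 (standard error 0.07). Expressed as a change in percent, the 95% interval ran from -11.9% to 11.5%. Without WT replicate 1, the library with the highest *Upf1*, the log2 fold change was 0.07. The exons of *Upf1* overlap those of *Cers1* and *Gdf1* on the opposite strand by 68 and 63 bases. The sources used here do not say whether counting used strand, so how reads there were counted is not known.

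*Upf2* encodes the protein that bridges UPF1 and UPF3. It was measured at 48.0, 44.9 and 50.5 CPM in WT and at 44.7, 51.0 and 50.8 CPM in mutants, so both the lowest and the highest library were mutant. The log2 fold change was 0.03 (standard error 0.07), with an interval from -7.92% to 13.8%.

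*Upf3a* and *Upf3b* are paralogs that link the pathway to exon junctions. *Upf3b* is the stronger activator of decay and lies on the X chromosome, and *Upf3a* is the weaker one. *Upf3a* measured 33.1, 35.5 and 35.7 CPM in WT and 35.3, 33.6 and 35.1 CPM in mutants, with all mutant values inside the WT range and a log2 fold change of 0.00 (95% interval -0.12 to 0.11). For *Upf3b* the values were 27.0, 28.5 and 29.1 CPM in WT and 29.2, 29.4 and 26.5 CPM in mutants, again overlapping, and the log2 fold change was 0.01 (95% interval -0.13 to 0.15). Because both counts come from the same library, their ratio does not depend on scaling between libraries. The log2 ratio of *Upf3a* to *Upf3b* counts was 0.29, 0.32 and 0.30 in WT (0.30 ± 0.01, SD, n = 3) and 0.27, 0.19 and 0.40 in mutants (0.29 ± 0.11, SD, n = 3). The means differed by -0.01, with a *P* of 0.8 in a two-sided exact permutation test, whose smallest possible *P* with 3 libraries per group is 0.1. The mutant ratios lay on both sides of the WT ratios. *Xist*, the RNA of the inactive X chromosome, was at 69.8 to 155 CPM in WT, at 65.0 and 98.9 CPM in mutant replicates 1 and 3, and at 0.368 CPM in mutant replicate 2, the library with the highest *Upf3b* and the lowest ratio. Its part in the ratio was not tested, and without that library the difference in the log2 ratio was 0.04.

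**Figure D2:**
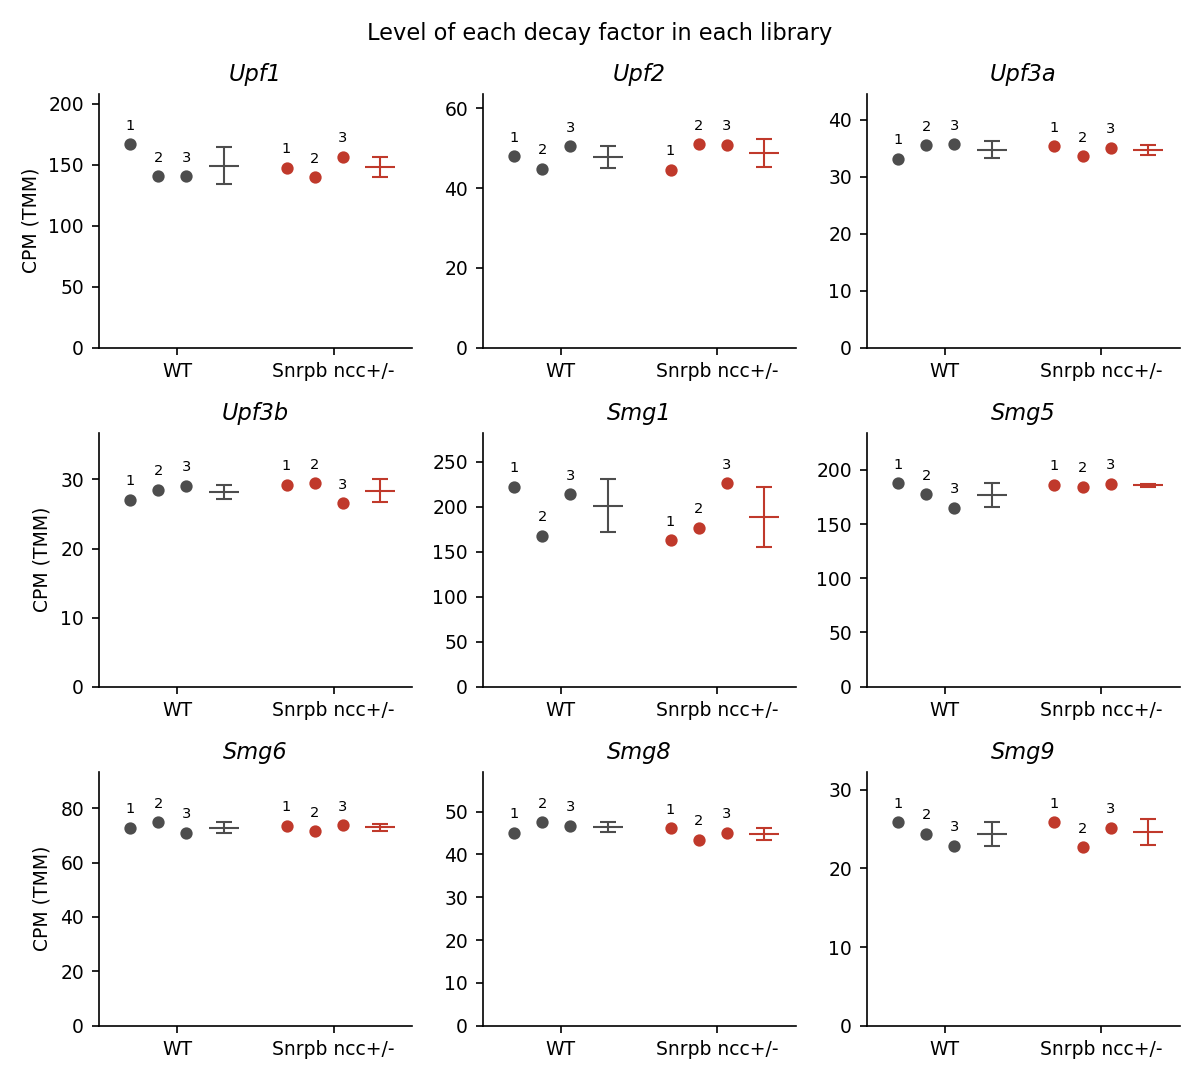
Level of each of the 9 decay factors in CPM after TMM scaling, with axes that start at 0. Points are single libraries, numbered by replicate, in WT (grey) and mutant (red) heads, and the bar to the right of each group is the mean with its SD (n = 3). In every panel the WT and mutant points overlap, and *Smg1* has the widest spread, from 163.0 to 226.1 CPM.

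*Smg1*, the kinase that phosphorylates UPF1, had the largest absolute difference of the 9 genes and the least certain one. Its level was 222.2, 167.8 and 213.8 CPM in WT and 163.0, 176.6 and 226.1 CPM in mutants, so that each group held both high libraries, at 213.8 CPM or more, and low ones, at 176.6 CPM or less. The means were 201 ± 29.3 CPM and 189 ± 33.2 CPM (SD, n = 3 each), and the log2 fold change was -0.09 (standard error 0.16). The 95% interval ran from -29.4% to 24.5%, so the values are compatible with a sizeable fall, a sizeable rise or no change. *Smg1* varied by 16.1% within groups (pooled coefficient of variation), more than all but 2.46% of the 5970 genes in the same range of levels. Leaving out mutant replicate 3 moved the log2 fold change to -0.25 and leaving out mutant replicate 1 moved it to 0.00, with an adjusted *P* of 0.812 by edgeR without mutant replicate 3. When the mean log2 level of Y-linked genes entered the fit as a covariate, the log2 fold change of *Smg1* was 0.18 (adjusted *P* = 0.999 by edgeR), so its direction turned.

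The genes whose profile over the 6 libraries was most like that of *Smg1*, by the root mean square difference of centred log2 CPM among 13138 genes, were *Dgkh* (0.03), *Birc6* (0.04), *Dync2h1* (0.04), *Akap13* (0.05) and *Clmn* (0.05). All 5 were high in WT replicates 1 and 3 and mutant replicate 3, like *Smg1*, which follows from how they were chosen. *Birc6*, for example, measured 402.7, 289.4 and 392.5 CPM in WT and 290.1, 305.2 and 391.5 CPM in mutants. *Smg1* has a representative transcript of 15557 bases, and only 0.300% of the genes with a length had a longer one. *Birc6*, *Dync2h1* and *Akap13* have representative transcripts of 15768, 14264 and 12543 bases. Those of *Dgkh* (3967) and *Clmn* (3529) are not unusually long, as 33.3% and 40.4% of genes have a longer one. Across 318 genes with a representative transcript of 10 kb or longer, a class chosen after these values were seen, the median deviation of log2 CPM from the mean of the 6 libraries was 0.14, -0.13 and 0.08 in WT and -0.15, -0.02 and 0.10 in mutants. It was positive in the same 3 libraries in which *Smg1* was high. In 3611 genes with a transcript of 2 kb or shorter it stayed between -0.02 and 0.03. Both classes leave out the decay factors, but *Birc6*, *Dync2h1* and *Akap13* are in the class of 10 kb or longer. Whether RNA length takes part in the spread of *Smg1* was not tested.

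**Figure D3:**
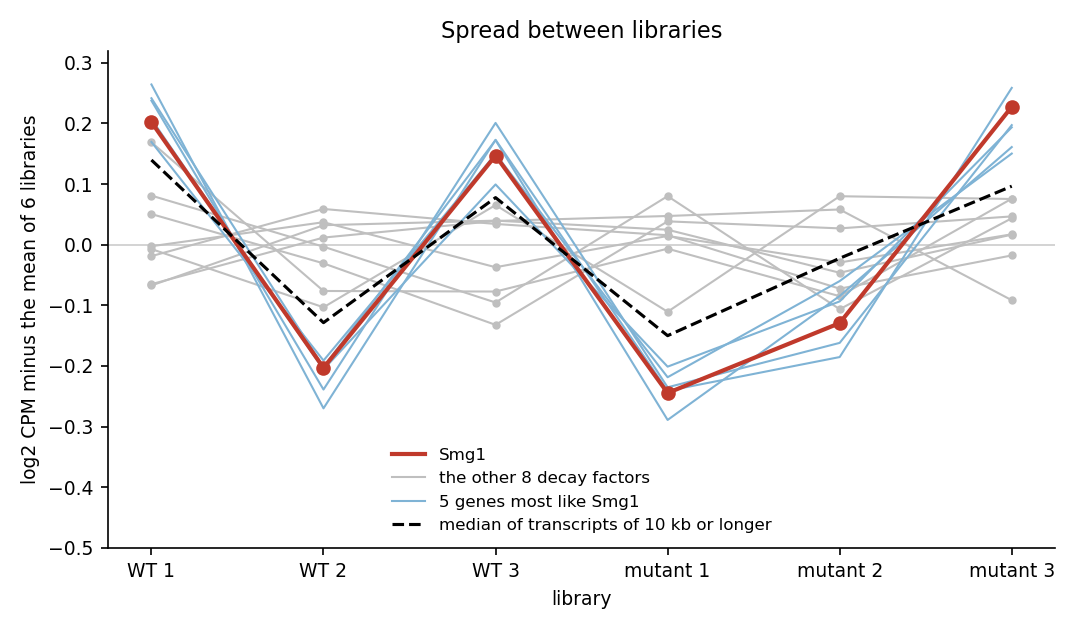
Deviation of log2 CPM from each gene's mean over the 6 libraries, for *Smg1* (red), the other 8 decay factors (grey), the 5 genes with the profile most like *Smg1* (blue), and the median of 318 genes with a transcript of 10 kb or longer (dashed). *Smg1* is above 0 in WT replicates 1 and 3 and mutant replicate 3 and below 0 in the other libraries. The 5 similar genes have the same signs because they were chosen for this profile. The long transcripts also have the same sign as *Smg1* in each library.

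*Smg8* and *Smg9* encode the 2 proteins that form a complex with SMG1 and restrain its kinase. *Smg8* was at 45.0, 47.5 and 46.7 CPM in WT and at 46.1, 43.4 and 45.1 CPM in mutants, and its log2 fold change was -0.05 with a standard error of 0.05. The interval ran from -10.5% to 4.13%, and the exact permutation *P* on CPM was 0.3, the lowest among the 9 genes. *Smg9*, the least abundant of the 9 in CPM, measured 25.9, 24.4 and 22.9 CPM in WT and 25.9, 22.7 and 25.2 CPM in mutants. Its WT and mutant ranges were nearly the same, and its log2 fold change was 0.01 (95% interval -0.15 to 0.17). Their log2 ratio, *Smg8* to *Smg9*, was 0.93 ± 0.12 in WT and 0.87 ± 0.06 in mutants (SD, n = 3 each, two-sided exact permutation *P* = 0.6).

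*Smg5* encodes an adaptor that binds phosphorylated UPF1. Its level was 187.5, 177.3 and 165.2 CPM in WT and 186.0, 184.5 and 187.0 CPM in mutants. The 3 mutant libraries had a mean of 186 CPM and an SD of 1.28 CPM, and the WT libraries ranged from below to just above them. The log2 fold change was 0.07 (standard error 0.05), with an interval from -2.59% to 13.6% and an unadjusted *P* of 0.170 by edgeR. Without WT replicate 1, the library that stood apart in endoderm and cardiac markers and that held the highest *Smg5*, the log2 fold change was 0.11, with an unadjusted *P* of 0.0265 and an adjusted *P* of 0.435 by edgeR.

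*Smg6*, the endonuclease, was the steadiest of the 9 genes. It measured 72.8, 74.8 and 71.1 CPM in WT and 73.6, 71.4 and 73.8 CPM in mutants, a pooled coefficient of variation of 2.22%. The log2 fold change was 0.00 with a standard error of 0.04, and the interval, from -6.38% to 6.96%, was the narrowest of the 9. Exons of *Smg6* overlap 126 bases of *Srr* and 117 bases of *Gm12333* on the opposite strand, with the same limit as for *Upf1*. The log2 ratio of *Smg5* to *Smg6* was 1.28 ± 0.08 in WT and 1.35 ± 0.02 in mutants (SD, n = 3 each), a difference of 0.07 with a two-sided exact permutation *P* of 0.3.

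Split by whether a gene is a known target of the pathway, the 6 autoregulated members (*Upf1*, *Upf2*, *Upf3b*, *Smg1*, *Smg5* and *Smg6*) had a median log2 fold change of 0.01, with 4 values above 0 and 2 below. The other 3 had a median of 0.00, with 1 above and 2 below.

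The levels of the 9 genes relative to each other were compared per length, as CPM per kilobase of the representative transcript. In WT heads *Smg5* was first, at 39.7 ± 2.51 CPM per kilobase, followed by *Upf1* at 32.3 ± 3.26 and *Upf3a* at 16.9 ± 0.692 (SD, n = 3), and the libraries of each of these 3 lay apart from those of the next gene. *Smg8* (14.4), *Smg1* (12.9), *Smg6* (12.5), *Upf3b* (12.03) and *Smg9* (10.9) followed, and each of the first 4 of these overlapped with its neighbour in the order. *Upf2* was last, at 9.23 ± 0.539, below *Smg9* in every library. In mutants each neighbour pair in this order lay apart or overlapped as in WT. All 9 genes were above the median of 6.88 CPM per kilobase of 14031 genes. The order depends on the length used. Divided by the length of all annotated exons, *Upf1* was first (32.3), followed by *Smg5* (25.4), *Smg8* (14.4) and *Upf2* (8.73), and *Upf3a* was last (5.93).

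**Figure D4:**
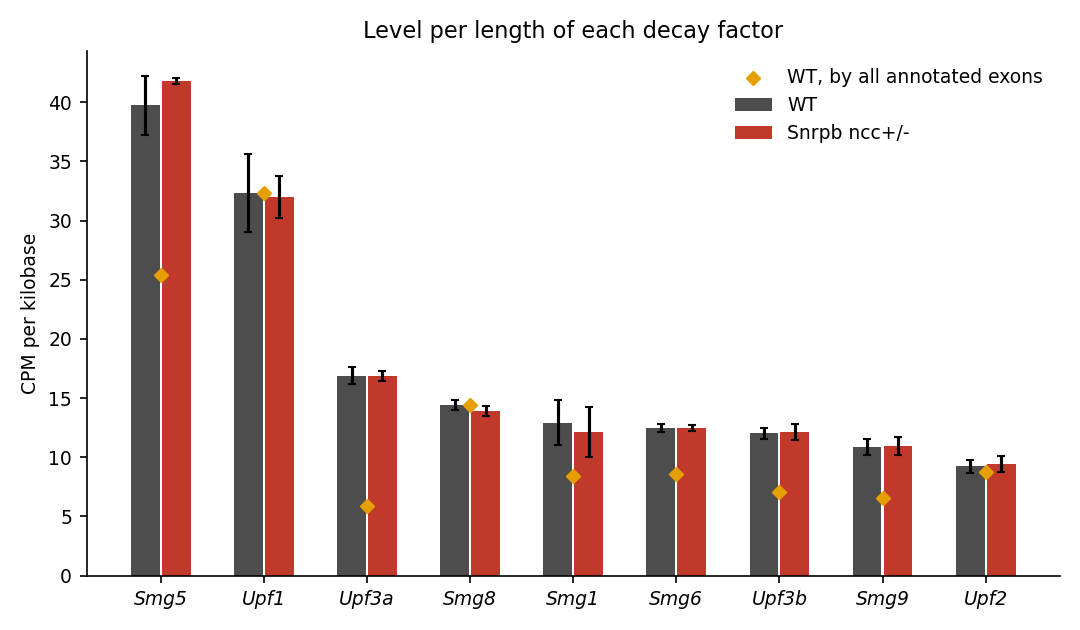
Level of each decay factor in CPM per kilobase of its representative transcript, as mean (bars) and SD (error bars) of 3 libraries in WT (grey) and mutant (red) heads. Diamonds give the WT mean divided by the length of all annotated exons. *Smg5* and *Upf1* stand above the other genes on both scales, and *Upf3a* is at 16.9 on one and last, at 5.93, on the other.

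Gene models were read from Gencode M21, an mm10 annotation later than the one the study used. The 9 genes are spread over 6 chromosomes: *Upf1* (chr8:70331525-70353278, minus strand), *Upf3a* (chr8:13785615-13799193, plus), *Upf2* (chr2:5951469-6056703, plus), *Upf3b* (chrX:37091678-37110322, minus), *Smg1* (chr7:118131308-118243670, minus), *Smg9* (chr7:24399619-24422778, plus), *Smg5* (chr3:88336260-88362338, plus), *Smg6* (chr11:74925823-75164448, plus) and *Smg8* (chr11:87077732-87086774, minus). An intron in the 3' UTR and an open reading frame upstream of the main one are both known features of decay targets. None of the 9 representative transcripts had an exon junction more than 50 bases after the stop codon, a feature of 0.364% of the genes with a model. *Upf1* had a junction 3 bases after its stop codon. An ATG in the leader was present in 4 of 9 (*Upf2*, *Smg1*, *Smg5* and *Smg9*), beside 52.4% of genes. The 3' UTR was 4233 bases in *Smg1*, longer than in all but 5.92% of genes, and 221 bases in *Smg8*, shorter than in 86.3% of genes, with a median of 958 bases over the 9 beside 1017 over all. A transcript annotated as a decay substrate exists for *Smg1*, *Smg5* and *Smg6* (3 of 9, beside 26.9% of genes). Counts per gene add these forms to the coding ones, so a shift between isoforms within a gene cannot be seen in these values.

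All 9 genes have a promoter in the RefSeq table for GRCm38.p6, taken as 250 bases before to 50 bases after the start site. Their ratio of observed to expected CpG was 0.799 to 1.20, with a median of 0.881 beside 0.724 for promoters of tested genes. On reading the sequences, a motif known from promoters of widely expressed genes, TCGCGAGA, was seen in *Smg5* and *Upf3b*, and it was then searched on both strands in all promoters. It was present in 2 of 9 promoters, beside 1.85% of those of tested genes and 0.995% of all. The windows of 30 bases that hold it are printed to show these sites, 5' to 3' on the strand of the gene, with the bases covered by matches in capitals. In *Upf3b* matches on both strands overlap in a palindrome.
Smg5, chr3:88336189-88336218, plus strand: aaggcaattttTCGCGAGActtggtgggtt
Smg5, chr3:88336238-88336267, plus strand: ggcggcagctaTCGCGAGAtttgataggtg
Upf3b, chrX:37110373-37110402, minus strand: ggccttaaacTCTCGCGAGAtctccgggag
The matches begin 60 and 11 bases before the start site of *Smg5* and 70 bases before that of *Upf3b*. These 2 genes differed in level per length, ranks 1 and 7 of 9, and neither passed the test between mutant and WT heads.

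Other genes of the pathway were taken from lists written from general knowledge. The 20 other NMD factors include release factors, cap-binding proteins and phosphatase subunits. Of these 20, 0 were called by edgeR (0.00642% of all tested genes) and 1 by DESeq2 (0.651% of the genes given an adjusted *P*). At an unadjusted *P* below 0.05 by edgeR, 0 were higher in mutants (4.34% of all tested genes) and 2 were lower (4.09%). The median log2 fold change of the 20 was 0.01. *Nbas*, which acts in decay and in transport from Golgi to endoplasmic reticulum, had the largest difference. Its level was 79.2, 70.8 and 76.2 CPM in WT and 57.9, 62.8 and 66.2 CPM in mutants, so every mutant library was below every WT library. The log2 fold change was -0.27 (standard error 0.06), with an adjusted *P* of 0.333 by edgeR and 0.0332 by DESeq2, so the call depends on the tool. *Pnrc2*, a decapping adaptor that binds UPF1 and was named here after its value was seen, was the other one, at -0.09 (adjusted *P* = 0.581 by edgeR). *Ctif*, which joins the nuclear cap-binding complex to translation, was at -0.12 with overlapping groups, and the largest values above 0 were 0.09 for both *Ncbp2*, a cap-binding subunit, and *Sec13*. The groups did not overlap in 4 of 20 genes in the higher direction (8.32% of all tested genes) and 4 of 20 in the lower one (6.92%).

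In the exon junction complex and its partners, 0 of 10 genes were called by edgeR (0.00642% of all tested genes) and 0 had an unadjusted *P* below 0.05 (8.43%). The groups overlapped in all 10, beside 15.2% of all tested genes in which they did not, and with only 10 genes this is not far from that share. The median log2 fold change was 0.05, and the values ran from -0.07 (*Pym1*, which disassembles the complex) and -0.03 (*Casc3*, a core subunit) to 0.08 (*Pnn* and *Sap18*). *Eif4a3*, the RNA clamp of the complex, measured 295.8, 315.2 and 305.7 CPM in WT and 331.2, 309.8 and 326.7 CPM in mutants. Among 37 genes of general mRNA decay, 0 were called by edgeR (0.00642% of all tested genes). DESeq2 called 0 as well (0.651% of the genes given an adjusted *P*). At an unadjusted *P* below 0.05 by edgeR, 1 was higher in mutants (4.34% of all tested genes) and 3 were lower (4.09%). These were *Cnot8*, a deadenylase (0.10), and *Pan2*, another deadenylase (-0.21), *Edc4*, a decapping scaffold (-0.15), and *Exosc5*, a subunit of the exosome named after its value was seen (-0.14), with adjusted *P* values from 0.437 to 0.554 by edgeR. *Edc3*, an enhancer of decapping, had the largest value above 0, 0.13, with overlapping groups.

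Known targets of the pathway were read as a second view of its output. Among 9 stress-response mRNAs, 0 were called by edgeR (0.00642% of all tested genes). DESeq2 also called 0 (0.651% of the genes given an adjusted *P*). At such shares, 0 calls says little about 9 genes. The median log2 fold change was 0.05. *Atf4*, a transcription factor of the integrated stress response with upstream reading frames, measured 170.5, 173.9 and 161.2 CPM in WT and 171.1, 173.5 and 172.7 CPM in mutants. The largest values above 0 were 0.21 for *Arc* and 0.20 for *Gadd45b*, both below 3.1 CPM in every library and with overlapping groups. The largest below 0 were -0.13 for *Tbl2* (unadjusted *P* = 0.0175, adjusted *P* = 0.478 by edgeR) and -0.05 for *Atf3*. *Tbl2* was the only 1 of 9 in which the groups did not overlap (6.92% of all tested genes in this direction). It was also the only 1 of 9 with an unadjusted *P* below 0.05 (4.09% in this direction). Among 6 noncoding host genes of snoRNAs, whose spliced RNAs are known decay targets, all 6 had a log2 fold change above 0 and the groups did not overlap in any (8.32% of all tested genes in this direction). The median log2 fold change was 0.28, and 5 of 6 had an unadjusted *P* below 0.05 by edgeR (4.34% of all tested genes in this direction). However, 0 of 6 were called by edgeR (0.00642% of all tested genes), and 2 of 6 by DESeq2 (0.651% of the genes given an adjusted *P*). Without the filter on low counts edgeR called 1 of 6, *Gas5*, with an adjusted *P* of 0.0390. That fit called 11 of 21083 tested genes. This list was written with earlier results of these data known, so its direction is not independent evidence. *Gas5*, chosen after its values were seen, measured 284.8, 290.1 and 265.6 CPM in WT and 343.3, 370.4 and 334.2 CPM in mutants, and the log2 fold change was 0.32 (standard error 0.05), with an adjusted *P* of 0.206 by edgeR and 0.000229 by DESeq2. *Snhg8*, also chosen after its values were seen, was the other gene called by DESeq2 (log2 fold change 0.25, adjusted *P* = 0.0381, and 0.291 by edgeR). The largest differences of the list were 0.34 for *Snhg15* and 0.32 for *Snhg12*. When the Y-linked level was added as a covariate, the median of the 6 was 0.19 and 2 of 6 had an unadjusted *P* below 0.05 by edgeR. In that fit 517 of all 15584 tested genes had such a *P*, beside 1314 without the covariate.

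**Figure D5:**
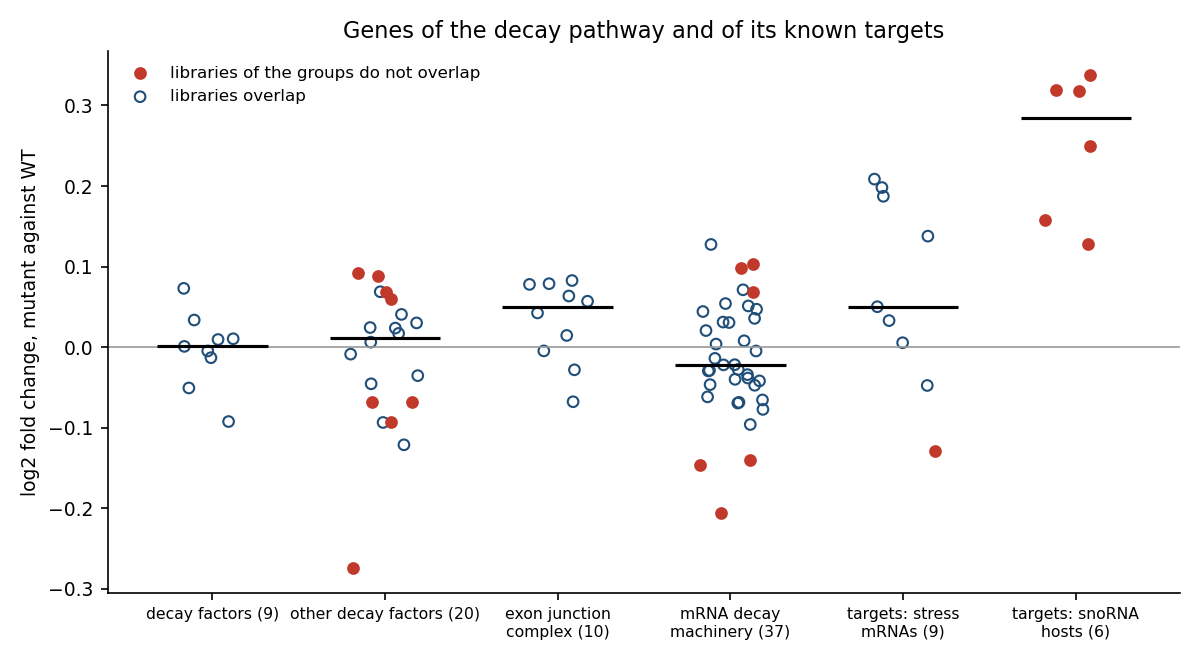
Log2 fold change, mutant against WT heads, by edgeR, of the 9 decay factors, the genes of 3 other pathway lists and 2 lists of known decay targets, with the number of genes in parentheses. Each point is a gene, filled red where the 3 mutant and the 3 WT libraries do not overlap, and the lines are medians. The decay factors lie between -0.09 and 0.07 with no red point, and the 6 snoRNA hosts lie between 0.13 and 0.34.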

How the data were processed

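RNA of heads from E9.0 embryos was sequenced by the authors after depletion of ribosomal RNA, with stranded kits. Raw counts by gene symbol, whole and not normalized, were deposited, which the authors made from reads trimmed, mapped to mm10 with STAR and counted on the Gencode M2 annotation. The paper names CutAdapt and HTSeq and the submitters' processing notes name Trim Galore and featureCounts, and the strand setting is not given in the sources used here. The data lines end in an empty cell that the header lacks, and columns were read by number.

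The labels' genotype gave the groups, 3 libraries in each, and no pair was a duplicate (chi-square per gene between libraries 10.2 to 28.3). Depth was 36378803 to 74909774 counts. The test was that of edgeR (version 4.0.16) in R 4.3.3: TMM, filterByExpr, robust quasi-likelihood, two-sided, no covariate, Benjamini-Hochberg over the 15584 genes kept of 24421, threshold 0.05. Intervals at 95% use the standard error implied by the F statistic. DESeq2 (version 1.42.0) was the alternative tool, and the others are in the closing section. Ratios and levels were tested with exact permutations. Scripts were tested on simulated data.

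Transcripts, lengths and coordinates come from Gencode M21. The representative transcript was the best-ranked principal coding one. *Pym1*, *Cnot9*, *Zfas1* and *Snhg15* were found under older symbols. The members and lists were chosen with earlier results of these data known. Genes named are the 9 members, *Snrpb*, the 5 genes nearest in profile to the member with the largest difference, and of each list the genes called, or otherwise the 2 largest differences in each direction among genes with a mean of at least 1 CPM. Others are said to be chosen after their values were seen, or are *Eif4a3* and *Atf4*, named for their roles with their values known. An item of the pathway is not reported here. Figures were drawn with matplotlib (version 3.10.9).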

Additional observations from a re-analysis of the deposited data

How the results depend on the processing

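In all 13 alternatives to edgeR with TMM on 6 libraries, 0 of the 9 decay factors were called. These fits called only 0 to 84 genes in total, so a call among 9 genes was unlikely in any of them. The median log2 fold change of the 9 stayed between -0.02 and 0.03. Single genes changed sign in 8 of 63 estimates with all libraries, *Smg1* among them. With the Y-linked level as a covariate, *Upf1* was at 0.0277, *Upf3a* at 0.0344, *Upf3b* at -0.0404, *Smg1* at 0.18 and *Smg6* at -0.00857. *Upf3a* was at 0.00676 with library size in place of TMM, and *Smg6* was at -0.00401 with DESeq2 and -0.00157 with DESeq2 size factors. With 1 library left out, signs changed in 19 of 54 estimates, and the log2 fold change ranged from -0.0599 to 0.0692 for *Upf1*, -0.00997 to 0.0920 for *Upf2*, -0.0418 to 0.0166 for *Upf3a*, -0.0235 to 0.0517 for *Upf3b*, -0.25 to 0.00115 for *Smg1*, -0.0175 to 0.0209 for *Smg6* and -0.0324 to 0.0647 for *Smg9*. *Smg5* (0.03 to 0.11) stayed above 0 and *Smg8* (-0.08 to -0.03) below 0 in those fits. The difference in the log2 ratio of *Upf3a* to *Upf3b* ranged from -0.0699 to 0.0365. The causes were not tested, and none of these values passed the threshold.

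Alternatives for the snoRNA hosts were added after the data were seen. With the Y-linked covariate, 2 of 6 had an unadjusted *P* below 0.05 by edgeR (517 of all 15584 tested genes did), and the median of the 6 was 0.19. With 1 library left out, 4 to 6 of the hosts did, beside 785 of 15506 to 1770 of 15548 tested genes. Without a filter, 1 of 6 was called (*Gas5*, adjusted *P* = 0.0390 by edgeR), beside 11 of 21083 tested genes. With DESeq2, 2 of 6 were called, beside 0.651% of the genes given an adjusted *P*. The log2 fold change of *Nbas* stayed between -0.33 and -0.20 in all alternatives. With the replicate number as a block, 0 decay factors were called, their median was 0.001 and *Smg1* was at -0.10. Deviations of same-numbered libraries correlated at 0.169, 0.0317 and 0.360. Libraries of different number were not compared in this way, so these values cannot tell whether the numbers mark pairs. The main fit did not take them as pairs. Over all genes, edgeR called 11 without a filter, 6 without WT replicate 1, 5 without mutant replicate 1, 0 with the Y-linked covariate or without another library, and 1 otherwise, and DESeq2 called 84. With 3 pools per group, the widths of the intervals above limit what could be seen.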
